A study of Mus musculus with 6 samples.

Results

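The genes described here are 8 transcripts of the two-cell-like state, *Zscan4b*, *Zscan4c*, *Zscan4d*, *Zscan4f*, *Tcstv1*, *Tcstv3*, *Zfp352* and *Usp17lc*, chosen by name from the 54715 rows of the deposited gene count table. They were compared between 3 replicates of WT ASCs (genotype wild type) and 3 replicates of *Bdh2*-knockout ASCs (genotype Bdh2-/-). ASCs are advanced embryonic stem cells, mouse pluripotent cells kept in a medium with activin A, BMP4, the GSK3 inhibitor CHIR99021 and LIF, and both groups came from a female 129/sv mouse mated with a GOF/GFP male. *Bdh2*, which encodes a 3-hydroxybutyrate dehydrogenase, was disrupted with CRISPR/Cas9 by a short deletion on both alleles near the start codon, and the study took 1 such deletion forward in ASCs, so differences between that line and WT ASCs cannot be told apart from differences between lines. It is not stated whether the 3 replicates were separate cultures, so p-values measure the spread between these libraries only.

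A small share of mouse pluripotent cells in culture passes at any time through a state that resembles the two-cell embryo, in which *Zscan4* transcripts and certain retroviral elements are switched on and levels of core pluripotency proteins drop. ZSCAN4 proteins carry a SCAN domain and zinc fingers and are known for extending telomeres by recombination and for genome stability. The transcription factor DUX opens this programme, DPPA2 and DPPA4 act upstream of it, and chromatin repressors such as TRIM28 and the CAF-1 complex hold it down. *Tcstv1* and *Tcstv3* are two-cell-stage variable group genes, *Zfp352* encodes a zinc-finger protein of the early embryo, and *Usp17lc* belongs to a family of deubiquitinating enzymes.

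All members are annotated as protein coding on GRCm38. The 4 *Zscan4* members have 4 exons each and lie in 1 cluster on chromosome 7, *Zscan4b* at chr7:10900740-10905050 on the minus strand, *Zscan4c* at chr7:11005745-11010547 on the plus strand, *Zscan4d* at chr7:11161374-11166159 on the minus strand and *Zscan4f* at chr7:11397915-11402318 on the plus strand. *Usp17lc* lies on the same chromosome at chr7:103415072-103419880, plus strand, with 2 exons. *Tcstv1* is at chr13:119893388-119894785 on the minus strand with 1 exon, *Tcstv3* at chr13:120316878-120318178 on the plus strand with 2 exons, and *Zfp352* at chr4:90218820-90225702 on the plus strand with 2 exons. No exon base of any member overlaps another annotated gene.

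The copies are so alike that a read often fits several of them. Over the coding sequence *Zscan4c* and *Zscan4f* were 99.6% identical, with 6 differing bases of 1518. *Zscan4d* differed from each of *Zscan4c* and *Zscan4f* at 35 bases (97.7% identity) and from *Zscan4b* at 51 bases (96.6%). The coding stretch below, positions 607 to 656 counted from 1 at the start codon of the GENCODE transcripts, is shown because it separates the 4 members, and capitals mark its 6 positions that vary among them. Among the 8 *Zscan4* genes annotated with a coding sequence, the *Zscan4d* and *Zscan4f* versions each occur in 1 gene, and the *Zscan4b* and *Zscan4c* versions each in 2. *Zscan4a*, annotated without a coding sequence, and genes of other families were not searched for these versions.
Zscan4b: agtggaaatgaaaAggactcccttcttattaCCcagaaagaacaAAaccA
Zscan4c: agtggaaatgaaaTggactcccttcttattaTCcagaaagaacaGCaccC
Zscan4d: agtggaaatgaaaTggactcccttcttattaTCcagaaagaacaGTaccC
Zscan4f: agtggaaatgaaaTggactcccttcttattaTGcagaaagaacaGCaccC

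Where the copies do not differ, no count can be assigned. The first 50 coding bases were letter for letter the same in 8 *Zscan4* genes, and a read that falls inside them could have come from any of these.
All Zscan4 with a coding sequence: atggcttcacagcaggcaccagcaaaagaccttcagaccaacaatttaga

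A stretch of 50 bases was used to ask how much of each transcript stands alone. For *Zscan4d*, 50.4% of such stretches occurred in no other gene, against 14.5% for *Zscan4c*, 9.65% for *Zscan4b* and 4.66% for *Zscan4f*. The share was 55.3% for *Usp17lc*, 68.6% for *Tcstv3*, 83.2% for *Tcstv1* and 92.9% for *Zfp352*. With stretches of 100 bases it rose to 70.4% for *Zscan4d* and 10.5% for *Zscan4f*. *Zscan4d* is thus the *Zscan4* member with the most sequence of its own, and how the counting treated reads with several matches is not given in the sources used here. Values of all 4 *Zscan4* members are uncertain as values of single genes for this reason, *Zscan4d* included, since 49.6% of its 50-base stretches occurred in other genes as well.

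**Figure D1:**
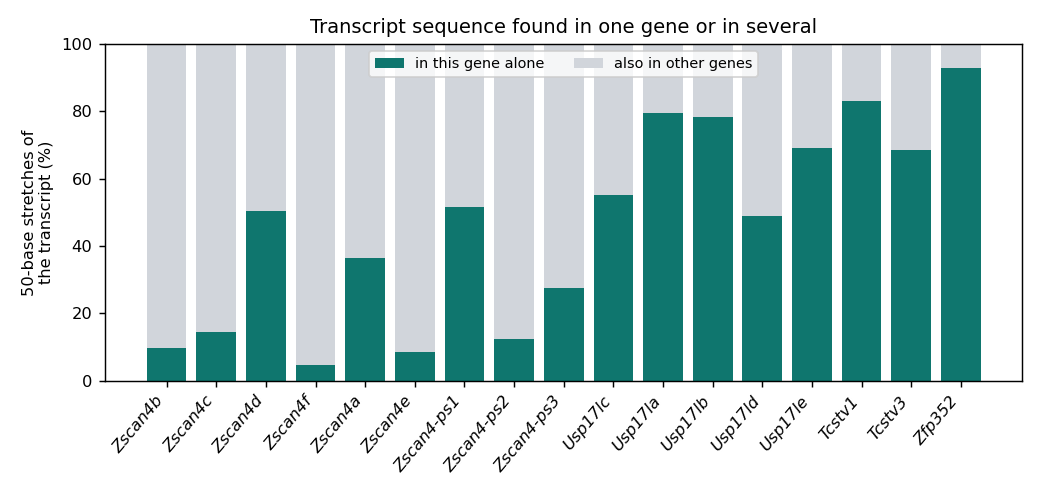
Share of all 50-base stretches of each gene's transcript (y axis, percent) that occur in that gene alone (green) or also in other genes (grey), for the 8 members and their close relatives (x axis). *Zscan4d* stands at 50.4% and *Zscan4f* at 4.66%.

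The promoters of the 4 *Zscan4* members were also close to each other. RefSeq promoter windows (GRCm38.p6, from 250 bases before to 50 after each start) were matched by symbol for 6 of the 8 members, all but *Tcstv1* and *Tcstv3*. A stretch of 156 bases that all 4 *Zscan4* windows share is shown with capitals at the 9 positions that vary. It lies at chr7:10905046-10905201 (minus strand) for *Zscan4b*, chr7:11005571-11005726 (plus) for *Zscan4c*, chr7:11166178-11166333 (minus) for *Zscan4d* and chr7:11397764-11397919 (plus) for *Zscan4f*.
Zscan4b: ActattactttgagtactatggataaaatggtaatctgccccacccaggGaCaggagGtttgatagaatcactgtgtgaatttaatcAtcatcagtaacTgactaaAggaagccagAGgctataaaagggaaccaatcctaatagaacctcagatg
Zscan4c: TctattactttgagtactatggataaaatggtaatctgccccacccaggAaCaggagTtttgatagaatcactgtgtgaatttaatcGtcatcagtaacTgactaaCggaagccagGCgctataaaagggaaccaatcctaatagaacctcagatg
Zscan4d: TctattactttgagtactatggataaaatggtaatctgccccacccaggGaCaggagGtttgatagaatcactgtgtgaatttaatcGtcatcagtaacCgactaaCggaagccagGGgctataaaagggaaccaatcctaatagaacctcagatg
Zscan4f: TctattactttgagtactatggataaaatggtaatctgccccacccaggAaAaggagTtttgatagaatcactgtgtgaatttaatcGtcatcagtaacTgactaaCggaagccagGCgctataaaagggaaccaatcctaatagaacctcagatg

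Over these bases *Zscan4c* and *Zscan4f* differed at 1 position, and *Zscan4d* differed from *Zscan4c* at 4 and from *Zscan4b* and *Zscan4f* at 5 each. A TATA box, searched as TATAAA on both strands, was found in the windows of all 4 *Zscan4* members, beginning at base 121 of the stretch, and in that of *Usp17lc*, but not in that of *Zfp352*. Of all 32851 promoter windows, 13.6% held it. The letters TGATTNAA, which open the motif bound by DUX, were found in the windows of the 4 *Zscan4* members, once in each, and in 2.87% of all windows. In *Zscan4b* the match lies in the printed stretch, on its reverse strand, and includes a variable position. *Zscan4c*, *Zscan4d* and *Zscan4f* have G at that position, and their matches lie outside the printed stretch. These windows are close copies of each other, so the 4 matches are not independent. The whole DUX motif was in none of the 6 member windows and in 0.0335% of all windows, and the T-box motif AGGTGTGA was in none of the 6 and in 1.28% of all. These matches describe letters in the windows and not binding.

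The libraries held 18927748 to 24945216 counts in WT ASCs and 24320119 to 28333541 in *Bdh2*-knockout ASCs. At these depths 3 counts, taken as the floor of detection, correspond to 0.106 to 0.158 CPM (counts scaled to a fixed library size), which covers counting error only. This floor and the level of the filter on low counts are scaled by library totals, without TMM. Other CPM values are after TMM unless stated. *Bdh2* itself had 203, 193 and 209 counts in WT and 164, 136 and 129 in knockout libraries, a log2 fold change of -0.79 (SE 0.12, edgeR adjusted p = 0.000246), so its RNA was lower in all 3 knockout libraries but was not lost. All 15 pluripotent cell markers tested were detected, with a summed level of 8593 to 8853 CPM in WT and 9021 to 9135 CPM in knockout libraries. Of these markers edgeR called 9 higher and 1 lower. For the calls in this paragraph, edgeR called 3518 of all 16758 tested genes higher (21%) and 3478 lower. Markers of other cell types were present too: the 12 primitive endoderm markers summed to 243 to 267 CPM in WT and 618 to 682 CPM in knockout libraries, and edgeR called all 12 higher, although *Foxa2* reached the level that the filter on low counts asks for in 3 libraries (0.406 CPM) in 1 WT and 3 knockout libraries and so passed the filter through the group in which it is high. The 16 hepatocyte markers, among them *Alb*, the gene of serum albumin, varied within groups, from 58.1 to 571 CPM in WT and from 33.6 to 170 CPM in knockout libraries. WT replicates 1 and 2 held the most, and 12 of the 16 passed as lower with edgeR and 0 with DESeq2. Of these 12, *Apoh*, *Cyp2e1*, *Serpina1a*, *Ambp* and *Serpina3k* passed the filter through the WT libraries, since 1 or 2 of their 3 knockout libraries reached its level. Summed fibroblast markers lay at 34.9 to 42.1 CPM in WT and 30.1 to 35.5 CPM in knockout libraries, trophoblast markers at 170 to 196 and 178 to 184 CPM, and oocyte transcripts at 43.0 to 45.7 and 36.3 to 37.8 CPM. With edgeR 0 of 7 tested fibroblast markers were called higher and 2 lower, and of 8 tested trophoblast markers 1 was called higher and 3 lower. The one marker of these lists at 0 in every library was *H1foo*, the oocyte linker histone gene. What part these markers have in the results below was not tested.

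*Zscan4d* was the one member called as changed, among the 3 that could be tested with the filter on low counts. It had 30, 22 and 31 counts in the WT libraries and 62, 58 and 47 in the knockout libraries. On the CPM scale the mean level was 1.29 ± 0.234 (SD, n = 3) in WT ASCs and 2.11 ± 0.145 (SD, n = 3) in *Bdh2*-knockout ASCs. Every knockout library lay above every WT library, as was so for 26.3% of all tested genes. The log2 fold change was 0.72 (SE 0.22, 95% interval 0.25 to 1.19, edgeR quasi-likelihood adjusted p = 0.0184). In bulk RNA, more cells in the state and more RNA in each such cell cannot be told apart. The call was lost with DESeq2 (log2 fold change 0.73, adjusted p = 0.0690), without WT replicate 2 (0.62, edgeR adjusted p = 0.0717) and without knockout replicate 1 (0.68, edgeR adjusted p = 0.0582). A permutation of single values cannot go below p = 0.1 with 3 against 3 libraries, and *Zscan4d* reached that value (two-sided exact permutation test).

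**Figure D2:**
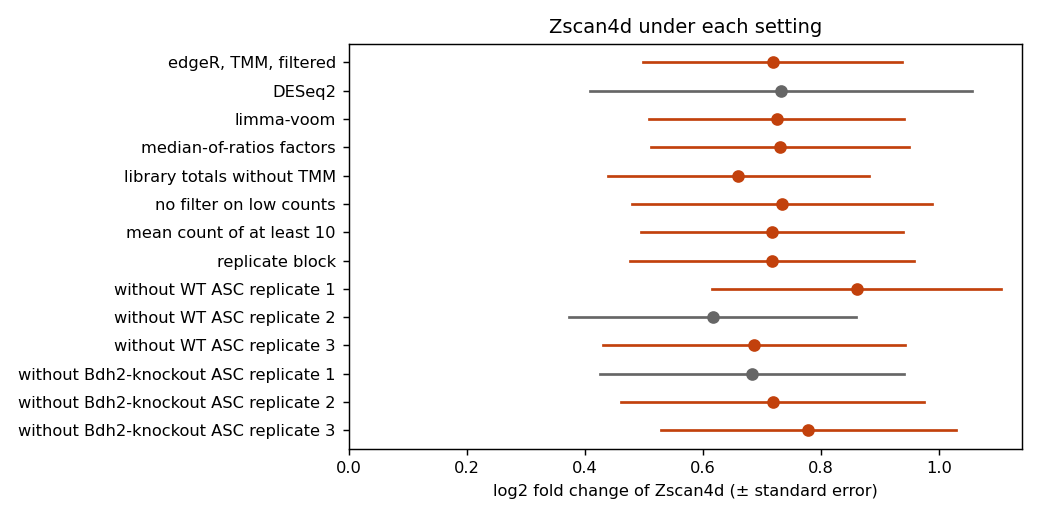
The log2 fold change of *Zscan4d* in *Bdh2*-knockout over WT ASCs (x axis) with its standard error, under each setting of the analysis (y axis); orange points have an adjusted p under 0.05 and grey points do not. The value stays between 0.62 and 0.86 while 3 of the plotted settings lose the call.

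The background in this comparison was high. Of 16758 genes that passed the filter on low counts, 6996 were called in either direction (41.7%) and 3518 as higher (21%). Of the 8 members, 3 passed that filter (*Zscan4c*, *Zscan4d* and *Zscan4f*) and 1 of the 3 was called, which does not stand apart from this share. Scaling by library totals in place of TMM changed the split of all calls from 3518 higher and 3478 lower to 2731 higher and 4451 lower, and *Zscan4d* stayed called (0.66, edgeR adjusted p = 0.0275). Without the filter all 8 members were fitted, *Zscan4d* was again the single member called, and 23.3% of all genes were. DESeq2 called 31.8% of the genes it gave an adjusted p, and 0 of the 5 members to which it gave one (all but *Tcstv1*, *Tcstv3* and *Zfp352*). At an unadjusted p under 0.05 DESeq2 gave 1 of 8 and edgeR 1 of the 3 tested.

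The other *Zscan4* members were higher in value but did not pass the test. *Zscan4c* had 24, 27 and 19 counts in WT and 44, 29 and 45 in knockout libraries, and the groups overlapped because knockout replicate 2 lay between the WT libraries in CPM. Its log2 fold change was 0.46 (SE 0.30, 95% interval -0.18 to 1.10, edgeR adjusted p = 0.235), and it was 0.23 without WT replicate 3, 0.29 without knockout replicate 3 and 0.67 without knockout replicate 2. *Zscan4f* had 15, 17 and 18 counts against 26, 25 and 29, with mean levels of 0.776 ± 0.0649 and 1.02 ± 0.162 CPM (SD, n = 3 each). Its knockout libraries all lay above its WT libraries, as did those of 26.3% of all tested genes, and its log2 fold change was 0.40 (SE 0.28, 95% interval -0.20 to 1.00, edgeR adjusted p = 0.272). *Zscan4b*, which was below the filter, had 6, 6 and 9 counts in WT and 9, 19 and 11 in knockout libraries, and knockout replicate 2 alone held nearly as many as the WT libraries together. When low counts were kept in the fit, its value was 0.62 on the log2 scale (SE 0.48, 95% interval -0.31 to 1.56, edgeR adjusted p = 0.424), which became 0.27 without knockout replicate 2 and 0.85 without knockout replicate 1. Each of these intervals reaches from below 0 to past the *Zscan4d* value.

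**Figure D3:**
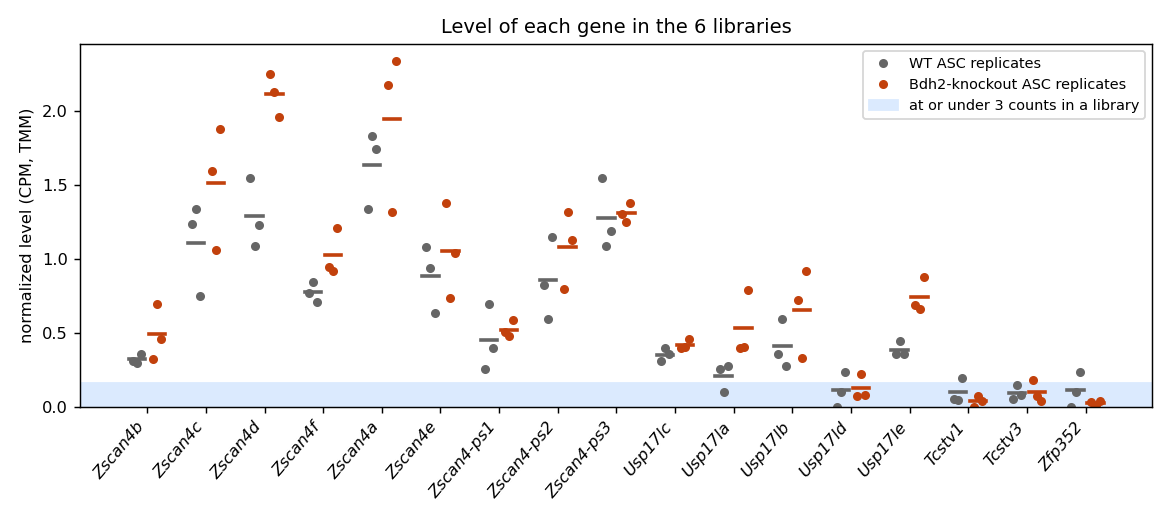
Level of each member and its close relatives (x axis) in CPM after TMM scaling (y axis), with 1 point per library, WT ASCs in grey and *Bdh2*-knockout ASCs in orange, horizontal bars for group means and a blue band for levels at or under 3 counts in the shallowest library. The band is scaled by the library total, without TMM. *Zscan4d* separates by genotype with means of 1.29 and 2.11 CPM, while *Tcstv1*, *Tcstv3* and *Zfp352* lie in or near the band.

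Levels between genes were compared per kilobase of the listed gene length, as FPKM computed from the counts. In WT ASCs the order was *Zscan4d* (0.567 ± 0.103, SD, n = 3), *Zscan4c* (0.487 ± 0.138), *Zscan4f* (0.396 ± 0.0331), *Zscan4b* (0.178 ± 0.0173), *Usp17lc* (0.144 ± 0.0178), *Tcstv3* (0.120), *Tcstv1* (0.0713) and *Zfp352* (0.0493). The neighbours *Zscan4d*, *Zscan4c* and *Zscan4f* differed by no more than 1 SD of the more variable gene of each pair, and the last 3 members were near the floor. In *Bdh2*-knockout ASCs the same 4 *Zscan4* members led, with *Zscan4d* at 0.930 ± 0.0638, *Zscan4c* at 0.665 ± 0.182, *Zscan4f* at 0.522 ± 0.0828 and *Zscan4b* at 0.274 ± 0.104 FPKM.

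*Usp17lc* had 6, 8 and 9 counts in WT and 11 in each of the 3 knockout libraries. Its mean level was 0.354 ± 0.0437 CPM in WT and 0.421 ± 0.0334 CPM in knockout libraries (SD, n = 3 each). Fitted without the filter, the log2 fold change was 0.26 (SE 0.48, 95% interval -0.69 to 1.21, edgeR adjusted p = 0.751). Knockout libraries lay above WT libraries after TMM scaling, as did those of 26.3% of all tested genes, but the groups overlapped when scaled by library totals. A change was not detectable at this depth.

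*Tcstv1*, *Tcstv3* and *Zfp352* were at the edge of detection. *Tcstv3* had 1, 3 and 2 counts in WT and 5, 2 and 1 in knockout libraries, *Tcstv1* had 1, 1 and 5 against 0, 2 and 1, and *Zfp352* had 0, 2 and 6 against 1, 0 and 1. The higher WT values of *Tcstv1* and *Zfp352* came from WT replicate 3 in both cases. With group means at or under 3 counts no fold change is given, and these libraries cannot show whether the 3 genes differ.

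The sum over the whole *Zscan4* cluster depends less on how reads were divided among its copies. *Zscan4a*, *Zscan4e*, *Zscan4-ps1*, *Zscan4-ps2* and *Zscan4-ps3* all passed the filter, and 0 were called by edgeR or DESeq2, nor did any have an unadjusted p under 0.05 with either, with log2 fold changes of 0.24, 0.27, 0.22, 0.31 and 0.04 (edgeR adjusted p from 0.449 to 0.901). Over all genes edgeR called 41.7% of those tested and DESeq2 31.8% of those with an adjusted p. The counts below are of these 5 *Zscan4* relatives. They were 26, 37 and 44 against 60, 36 and 56 for *Zscan4a* and 30, 22 and 30 against 36, 34 and 33 for *Zscan4-ps3*, and the groups overlapped for all 5. Summed over the 9 *Zscan4* rows, the libraries held 173, 176 and 206 counts in WT and 311, 270 and 287 in knockout ASCs. As CPM the sum was 8.59 ± 0.394 in WT and 11.1 ± 1.06 in knockout libraries (SD, n = 3 each), a ratio of 1.29. Every knockout library lay above every WT library in this sum, as was so for 26.3% of all tested single genes. Sums were described and not tested. Leaving out any 1 library gave ratios of 1.23 to 1.35.

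Without *Zscan4d* the other 8 rows summed to 7.31 ± 0.355 CPM in WT and 8.94 ± 1.12 CPM in knockout libraries (SD, n = 3 each), a ratio of 1.22, with knockout replicate 2, at 7.77 CPM, just above the highest WT library, at 7.63 CPM. Scaled by library totals, knockout replicate 2 (7.61) fell below WT replicate 2 (7.77) and these groups overlapped, with a ratio of 1.18, while the sum of all 9 rows still did not overlap. The 4 *Zscan4* members together had a ratio of 1.47, and *Zscan4-ps1*, *Zscan4-ps2* and *Zscan4-ps3* a ratio of 1.13 with overlapping groups. Despite their names these 3 are annotated as protein coding in GENCODE M21, and *Zscan4a* is annotated there as an unprocessed pseudogene. *Zscan4d* took 12.5% to 17.3% of the *Zscan4* counts in WT and 16.4% to 21.5% in knockout libraries, so its share overlapped between genotypes. All 9 rows had a fitted value above 0 without the filter on low counts, and 8 of 9 did when libraries were scaled by their totals, without WT replicate 1 and without WT replicate 2, with lowest values of -0.01, -0.03 and -0.03.

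**Figure D4:**
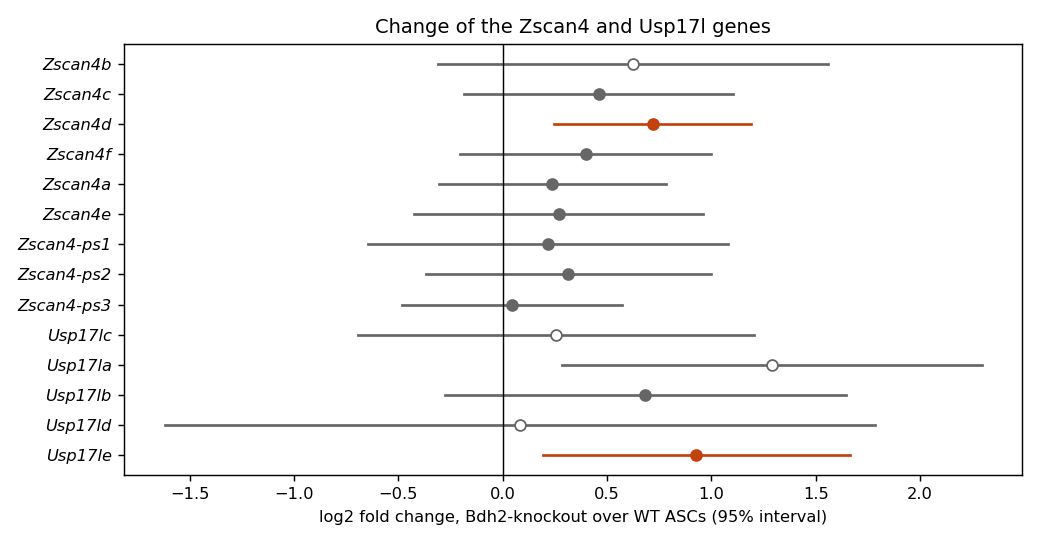
The log2 fold change in *Bdh2*-knockout over WT ASCs (x axis) with its 95% interval for the 9 *Zscan4* and 5 *Usp17l* rows (y axis); filled points passed the filter on low counts, open points were fitted without it, and orange marks an adjusted p under 0.05 in the filtered fit. *Zscan4d* (0.72) and *Usp17le* (0.93, admitted by its knockout libraries) are orange, and the intervals of the other filled points include 0.

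Among the relatives of *Usp17lc*, *Usp17le* had 7, 9 and 9 counts in WT and 19, 18 and 21 in knockout libraries with a fitted log2 fold change of 0.93. It was the single relative of 8 tested, over all families, that edgeR called, where 41.7% of all tested genes were called. However, *Usp17le* reached the filter's level of 0.406 CPM in 1 of 3 WT libraries against all 3 knockout libraries. It was thus admitted to the test by the group in which it is high, the call carries no weight of its own, and it was lost with DESeq2 and without any 1 of the 6 libraries. *Usp17lb* had 7, 12 and 7 against 20, 9 and 22 counts (0.68, edgeR adjusted p = 0.236), and *Usp17la* (5, 2 and 7 against 11, 11 and 19) and *Usp17ld* (0, 2 and 6 against 2, 6 and 2) did not pass the filter. *Usp17lc* and *Usp17ld* were 98.4% identical over their coding sequence. The 5 *Usp17l* rows summed to between 1.29 and 1.63 CPM in WT and between 2.02 and 3.13 CPM in knockout libraries, a ratio of 1.68 with no overlap. This sum was not tested, and 26.3% of all tested single genes had all knockout libraries above all WT libraries.

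The *Tcstv* members were too low to compare, and 1 relative could be tested. *Tcstv1* and *Tcstv3* together had 2, 4 and 7 counts in WT and 5, 4 and 2 in knockout libraries. Of the 4 relatives on chromosome 13, 1 passed the filter: *Gm20767*, with 13, 17 and 7 against 13, 10 and 9 counts (-0.51, edgeR adjusted p = 0.358). *BC147527* (3, 2 and 4 against 2, 4 and 4), *AF067061* (1, 3 and 1 against 2, 0 and 1) and *AF067063* (0 in each WT library against 2, 2 and 0) were near the floor. The list used for this family also named 4 genes on other chromosomes whose coding lengths of 1428 to 1443 bases are unlike the 507 and 513 of *Tcstv3* and *Tcstv1*, and none is a *Tcstv* gene. Of these, *BC080695* had 4, 4 and 6 against 11, 7 and 12 counts, *B020004J07Rik* had 5, 0 and 1 against 1, 3 and 2, and *D5Ertd577e* and *BC061212* had none.

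Most of the tested genes listed as activators of the two-cell-like state were higher in *Bdh2*-knockout ASCs, while *Duxf3*, the mouse *Dux* gene, was near the floor. *Duxf3* had 5, 4 and 2 counts in WT and 3, 4 and 4 in knockout libraries and did not pass the filter. Of the 6 tested genes on this list 5 rose and 0 fell, with edgeR and also at an unadjusted p under 0.05 or with DESeq2. Whether each listed gene, *Zfp281* included, acts as an activator in these cells was not tested. For comparison, edgeR called 21% of all tested genes higher. The list had a median log2 fold change of 0.24 against -0.01 over all tested genes. *Dppa2*, with 1264, 1353 and 1867 counts in WT and 3481, 3346 and 2905 in knockout libraries, rose by 0.84 (SE 0.06, edgeR adjusted p = 3.58e-07). *Tbx3* rose by 0.64, *Dppa4*, the partner of *Dppa2*, by 0.29, *Zfp281* by 0.20 and *Nelfa* by 0.17. *Dppa3* had a value of -0.18 (edgeR adjusted p = 0.118), and passed as lower when libraries were scaled by their totals. Scaling by totals and the replicate block each left 4 activators called higher.

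Of 30 reported repressors tested, 15 rose and 15 were not called. None (0) fell with edgeR, the median was 0.13, and 21% of all tested genes were called higher. At an unadjusted p under 0.05, 1 was lower with edgeR and 0 with DESeq2. Scaled by library totals, edgeR called 12 higher and 2 lower, and without WT replicate 3 it called 1 lower. The largest value was that of *Sumo2*, the modifier that is attached to chromatin repressors (1.47, SE 0.32), which had 41.8, 57.4 and 55.0 CPM in WT and 56.2, 210 and 163 CPM in knockout libraries. Knockout replicate 1 lay among the WT libraries, so the groups overlapped and the value came from knockout replicates 2 and 3. *Myc* rose by 0.87, *Trim28*, the KRAB zinc-finger co-repressor, by 0.50, *Ehmt2*, an H3K9 methyltransferase, by 0.45 and *L3mbtl2*, a Polycomb-related factor, by 0.32. The large CAF-1 subunit gene *Chaf1a* rose by 0.24, while *Kdm1a* (-0.02) and *Dnmt1* (0.11) did not pass the test. Some genes listed as activators and some listed as repressors of the two-cell-like state were thus higher in the same libraries.

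**Figure D5:**
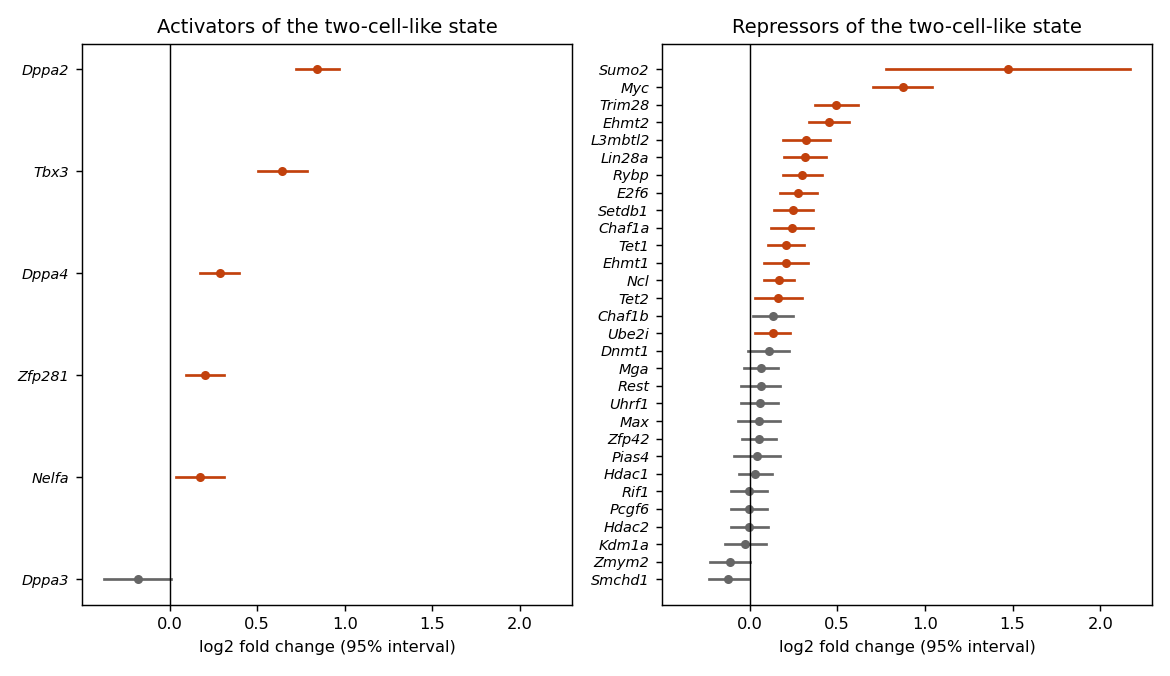
The log2 fold change in *Bdh2*-knockout over WT ASCs (x axis) with its 95% interval for the 6 tested genes listed as activators (left) and the 30 listed as repressors (right) of the two-cell-like state. Each gene has its own line, and orange marks an adjusted p under 0.05. *Dppa2* leads the activators at 0.84 and *Sumo2*, with the widest interval, leads the repressors at 1.47.

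Few other genes of the two-cell programme could be tested. Of 65 listed, 61 were in the table, 49 had a count and 16 passed the filter, of which 5 were called higher, 1 lower and 10 neither (median 0.20). That is 6 of 16, where 41.7% of all tested genes were called, so the list does not stand apart. One of the 5, the PRAME-family gene *Gm12794*, had 3, 3 and 1 counts in WT and 18, 13 and 10 in knockout libraries. It passed the filter only through the knockout libraries, with WT at or under the floor, so no fold change is given and its call supports nothing. *Zfp750* rose by 0.58, *Pramef8* by 0.57, *Ddit4l* by 0.43 and *Zfp600* by 0.19, the last of which lost its call with DESeq2 (adjusted p = 0.0526). *Fbxo15* fell by 0.36 on the log2 scale.

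Telomere maintenance, the process for which *Zscan4* is best known, was split in direction. Of 27 tested genes 9 rose, 10 fell and 8 did not pass the test, with a median of -0.05, where 41.7% of all tested genes were called. DESeq2 called 9 higher and 7 lower, and edgeR without knockout replicate 1 called 7 higher and 5 lower. Those that rose included *Ten1* (0.56) and *Stn1* (0.27) of the CST complex, *Wrap53* (0.43), which brings telomerase RNA to Cajal bodies, the histone H3.3 chaperone *Daxx* (0.31) and *Pot1b* (0.29). Those that fell included *Terc*, the telomerase RNA (21, 19 and 16 against 9, 12 and 12 counts, log2 fold change -1.05), *Pot1a* (-0.56), the meiotic recombinase *Dmc1* (-0.41), *Tert*, the telomerase reverse transcriptase (-0.37), and the helicase *Wrn* (-0.27). The call of *Terc* was lost with DESeq2 (adjusted p = 0.118), and it reached the filter's level in all 3 WT but only 2 of 3 knockout libraries.

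The pattern of the summed *Zscan4* rows over the 6 libraries was compared with that of 12718 well-counted genes. The most alike were *Gucy1a2* (Pearson r = 0.997 on the log2 CPM scale, 6 libraries), *Gpcpd1* (0.996), *Slbp* (0.992), *Med27* (0.991) and *Prss50* (0.990). These points share library scaling and a genotype difference, and with group means removed r was 0.951 to 0.994. With so many genes searched and 6 libraries, these values are a description only.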

How the data were processed

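RNA of 3 replicates of WT ASCs and 3 of *Bdh2*-knockout ASCs was sequenced. Reads were trimmed of adaptors and filtered for base quality by the authors, aligned with Hisat2 2.0.5 against GRCm38 and assigned to genes with FeatureCounts. The deposited values are raw counts, with 1 listed length per gene. Annotation release, strand setting and the treatment of reads with several matches are not given in the sources used here.

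Counts were fitted over all genes in R 4.3.3 with edgeR 4.0.16 (TMM, filterByExpr with a minimum count of 10, glmQLFTest, genotype as factor, Benjamini-Hochberg adjustment, threshold 0.05). DESeq2 1.42.0 (the authors used an earlier version), limma 3.58.1 (voom), other scalings and filters, a replicate block, a test against a fold of 1.2 and leaving out each library were alternatives. Members that did not pass the filter were read from the fit without it. Single values were compared by exact permutation. CPM and FPKM were computed from counts, effective library sizes and listed lengths. Functions were tested on simulated data. Transcripts and exons came from GENCODE M21 and promoters from RefSeq, aligned with MAFFT 7.526. Plots were made with matplotlib 3.10.9.

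The members and gene lists were chosen with earlier results of these data known. Named genes were the members, their counted relatives, *Bdh2*, *Duxf3*, *Dppa2* and *Dppa4*, up to 5 called genes per direction in each list with the largest change, defining markers, and the 5 genes most correlated with the summed *Zscan4* rows among tested genes with a mean of at least 50 counts. *Chaf1a*, *Kdm1a*, *Dnmt1* and *Dppa3* were added after their values were seen. No sample column was left unused (0).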

Additional observations from a re-analysis of the deposited data

How the results depend on the processing

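*Zscan4d* kept its direction in every alternative run, with a log2 fold change of 0.62 to 0.86 when 1 library was left out. It was no longer called with DESeq2 (0.73, adjusted p = 0.0690), with edgeR against a fold of 1.2 (0.72, edgeR adjusted p = 0.0809) or without WT replicate 2 or knockout replicate 1, and over all its alternatives the adjusted p ranged from 0.0165 to 0.0809. *Zscan4b*, *Zscan4c*, *Zscan4f* and *Usp17lc* kept a value above 0 and were called under no alternative. With the replicate block *Zscan4d* was 0.72 (edgeR adjusted p = 0.0278). The number of genes called over all genes was 2457 against a fold of 1.2, 6452 with the replicate block and 5613 to 7409 when 1 library was left out. Relatives called higher went from 1 to 0 with DESeq2, library totals, no filter and the replicate block, and to 0 in each of the 6 fits without 1 library (from 0 to 0). Genes called lower went from 0 to 1 among activators and from 0 to 2 among repressors with library totals. Among repressors the range over left-out libraries was 0 to 1, with the 1 found without WT replicate 3. Telomere genes called lower ranged from 5 (without knockout replicate 1) to 9 in those fits, against 10. The cause of these changes was not tested. Scaling by library totals moved the median log2 fold change of all genes from -0.01 to -0.07.

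The replicate numbers did not pair the libraries: same-numbered WT and knockout libraries had correlations of -0.15, 0.12 and 0.26 in their deviations from the group means, and the replicate block changed no call among the members. The use of the fit without the filter as the base of the other settings for *Zscan4b* and *Usp17lc*, the sum without *Zscan4d* and the overlap of sums and of single members scaled by library totals were chosen after seeing the data. Depth limits all members, since the highest count of any member in any library was 62, and *Tcstv1*, *Tcstv3* and *Zfp352* could not be compared.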

Other observations

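The surroundings of the *Zscan4* cluster were quiet. Within 500 kb on either side of and between the *Zscan4* genes the table held 100 other rows, of which 9 had any count and 2 passed the filter. *Zik1*, a zinc-finger gene, had 395, 318 and 428 counts in WT and 440, 436 and 373 in knockout libraries (log2 fold change -0.16, SE 0.09, edgeR adjusted p = 0.184), and *Gm10179* had a log2 fold change of -0.01. Neither was called by edgeR or had an unadjusted p under 0.05.

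Transcripts of the oocyte, some of which persist into the two-cell embryo, were mostly below the filter. Of 12 listed, 3 were tested: *Zp3*, the gene of a zona pellucida protein, rose by 0.69 on the log2 scale (SE 0.12, edgeR adjusted p = 0.000585), *Ooep*, of the subcortical maternal complex, fell by 0.70 (SE 0.06, edgeR adjusted p = 2.07e-06) and *Padi6* had a value of -0.42 (edgeR adjusted p = 0.514).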
